A study of Mus musculus with 2 samples.

Results

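The genes described here are 10 immune checkpoint receptors and ligands, taken by symbol from the feature lists of the deposited matrices: Pdcd1 (PD-1), Havcr2 (TIM-3), Lag3, Tigit, Ctla4, Cd160, Entpd1 (CD39), Cd274 (PD-L1), Pdcd1lg2 (PD-L2) and Lgals9 (galectin-9). They are 7 receptor-side genes, with the ectoenzyme Entpd1 counted among them, and 3 ligands, out of 32432 genes measured. Each was followed through the leukocytes of B16-F10 melanomas, a transplantable mouse melanoma, with a 10x Genomics 3' single-cell RNA assay. The tumour hosts were male mice of 8 to 12 weeks. Trex1 iKO mice had the genotype Trex1 fl/fl R26CreERT2 ki/wt, and Trex1 control mice Trex1 wt/fl R26CreERT2 ki/wt. The controls therefore carried the same tamoxifen-inducible Cre, expressed from the ubiquitously active Rosa26 locus, and 1 floxed Trex1 allele. All hosts received 1000 B16-F10 cells in Matrigel in the skin of both legs and, beginning on day 5, 3 daily doses of 1 mg of tamoxifen. Tumours were collected on day 14. The sort kept live CD45-positive cells, that is leukocytes, and the floxed alleles and the Cre belonged to the hosts. Each genotype was 1 pool of 4 hashtagged samples, and the labels do not say whether a hashtag marks 1 mouse. Genotype and pool cannot be told apart, and p-values measure only the spread between hashtagged samples. The design text asks how the immune response that follows Trex1 loss regulates tumour growth.

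Checkpoint receptors restrain activated lymphocytes. PD-1 binds PD-L1 and PD-L2 and recruits the phosphatase SHP-2 to antigen-receptor and CD28 signalling, CTLA-4 competes with CD28 for CD80 and CD86, and LAG-3 binds MHC class II. TIM-3 has galectin-9 among its ligands, TIGIT binds CD155, CD160 binds HVEM, and CD39 breaks down extracellular ATP as the first step towards adenosine. In tumours the receptors mark T cells under chronic antigen stimulation as well as regulatory T cells, and PD-L1 is induced by interferons on myeloid, dendritic and tumour cells.

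The files held 23731 barcodes, of which 22052 were kept as cells. No deposited annotation was used here, so classes were rebuilt by clustering without the 10 genes and named from marker genes as lymphoid (CD8 T-like with 4888 cells, CD4 T-like 783, Treg-like 889, NK-like 265, B-like 959), monocyte/macrophage-like (8666), neutrophil-like (1940) or dendritic (mature DC-like with 621 cells, cDC2-like 977, cDC1-like 233, pDC-like 152). A further 1679 cells in 4 clusters stayed unnamed. The labels call the cells lymphocytes, whereas monocyte/macrophage-like cells made up 44.6% of iKO and 31.4% of control cells. Median depth per kept cell ran between 12983 and 14490.5 UMIs across the iKO samples, and between 6405 and 11845.5 across the controls. Values below are CPM, a gene's UMIs per 1000000 UMIs summed over a class in 1 hashtagged sample, for samples with at least 20 cells of that class. Trex1 had 0 UMIs in all 4 iKO samples and 2 in the controls, both in control 2, so its loss could not be checked at this depth. The classes were unequal in size, since CD8 T-like cells were 30.2% of iKO and 10.2% of control cells and neutrophil-like cells 3.65% and 16.5%. Within the iKO group, samples 1 and 2 held 1223 and 2426 CD8 T-like cells and samples 3 and 4 held 138 and 204.

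**Figure D1:**
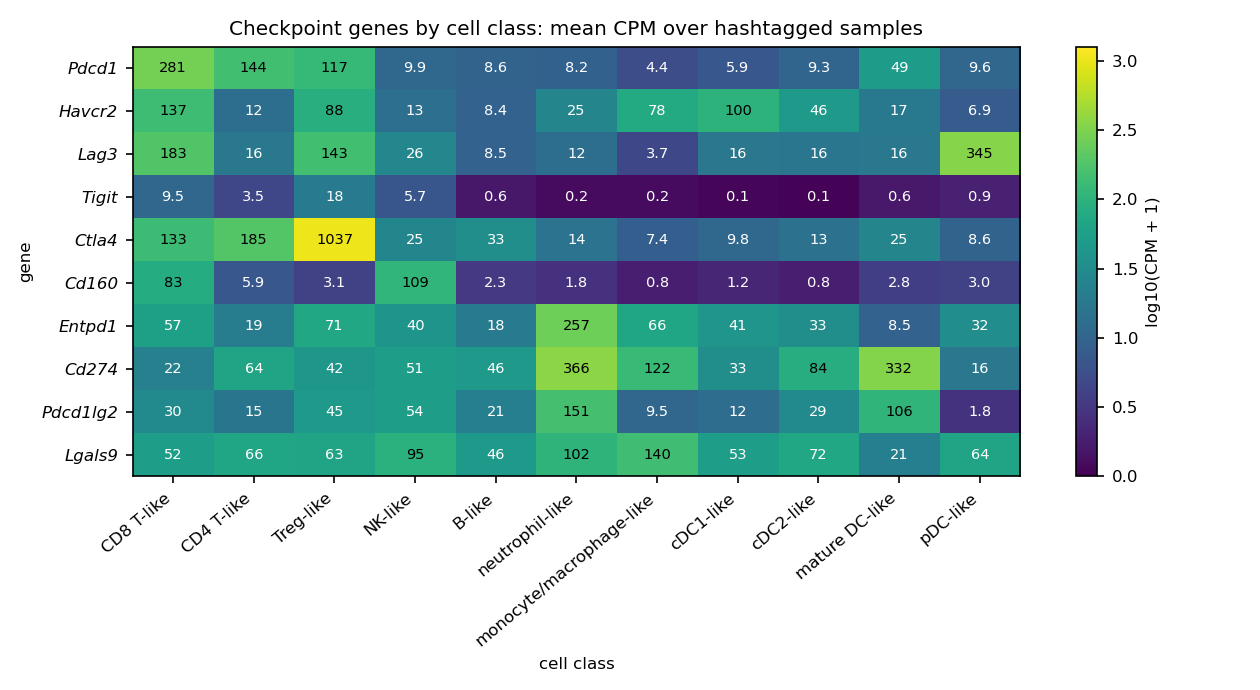
Mean CPM of each of the 10 checkpoint genes (rows) in each of the 11 named cell classes (columns), averaged over hashtagged samples with equal weight per sample. Colour is log10(CPM + 1). Both genotypes are included, but pDC-like means rest on 4 iKO samples and 1 control sample, and cDC1-like means on 4 and 2. Within a row the receptor genes are highest in the T, NK or pDC classes and the ligands in myeloid classes, except Entpd1, whose highest mean, 257 CPM, is in neutrophil-like cells.

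Pdcd1 and Ctla4 were highest in T cell classes. Pdcd1 ranged from 210.9 to 381.3 CPM over the 8 CD8 T-like samples, and no sample of another class exceeded 203.4 CPM. CD4 T-like and Treg-like samples overlapped in Pdcd1. Mature DC-like cells had 32.8 to 68.4 CPM of it, above the at most 24.4 CPM of the other non-T classes. Ctla4 was 719.2 to 1259 CPM in Treg-like samples, without overlap with the 109.9 to 291.5 CPM of CD4 T-like and 101.7 to 159.5 CPM of CD8 T-like samples. Tigit was sparse: Treg-like samples had 7.5 to 29.1 CPM and CD8 T-like samples 4.62 to 16.3 CPM, and their ranges overlapped. The 4 NK-like samples, at 4.63 to 8.62 CPM of Tigit, lay inside the CD8 T-like range. In Treg-like cells thinned to 2000 UMIs each, 77.5% had at least 1 Ctla4 UMI, against 3.58% of B-like cells thinned alike. Pdcd1 was detected in 46.2% of thinned CD8 T-like and 1.68% of thinned B-like cells, whose unthinned median depths were 14804 and 4014 UMIs.

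Lag3, Cd160 and Havcr2 were shared between T cells and other classes. The highest Lag3 levels were in pDC-like cells, with 229.8 to 433.5 CPM over 5 samples, 4 of them iKO and 1 control. CD8 T-like samples had 101.7 to 318.9 CPM and Treg-like samples 50.6 to 306.4 CPM, and all these ranges overlapped. Thinned cells with a Lag3 UMI made up 40.8% of pDC-like, 38.7% of CD8 T-like and 0.896% of B-like cells. Cd160, a receptor of cytotoxic lymphocytes, reached 85.5 to 157.5 CPM in 4 NK-like samples and 57.5 to 111 CPM in CD8 T-like samples, and no other named class exceeded 17.6 CPM. The unnamed cluster 5, led by Gm2682 and Sidt1, had 51.8 to 116.5 CPM of Cd160 over 8 samples, which overlapped the CD8 T-like and NK-like samples, and unnamed cells held 6.87% of Cd160 UMIs. Havcr2 was 76.7 to 221.4 CPM in CD8 T-like, 65.8 to 139 CPM in cDC1-like, 53 to 129.5 CPM in Treg-like and 45.8 to 115.7 CPM in monocyte/macrophage-like samples, an unbroken series of overlapping ranges. Monocyte/macrophage-like cells contributed 35.4% of all Havcr2 UMIs in named and unnamed cells and CD8 T-like cells 52.0%. Entpd1 was highest in neutrophil-like cells, at 192.9 to 318.1 CPM, and did not exceed 125.4 CPM in any other class. CD8 T-like cells supplied 89.6% of Pdcd1, 87.0% of Cd160 and 85.7% of Lag3 UMIs, but these shares also follow the large number of such cells in iKO samples 1 and 2.

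The ligands Cd274 and Pdcd1lg2 shared their leading classes. Cd274 was 101.6 to 582 CPM in neutrophil-like and 272.6 to 406.7 CPM in mature DC-like samples, with the mature DC-like range clear of the 78 to 208.1 CPM of monocyte/macrophage-like samples. Pdcd1lg2 was 22.6 to 320.5 CPM in neutrophil-like and 73.9 to 152 CPM in mature DC-like samples, and 6.2 to 13.1 CPM in monocyte/macrophage-like ones. Next in Pdcd1lg2 were NK-like samples at 41.7 to 74.1 CPM, Treg-like at 24.4 to 68.2 CPM and CD8 T-like at 23 to 38.8 CPM. Thinned cells with a Pdcd1lg2 UMI were 8.78% of NK-like and 12.8% of Treg-like cells. Pooled over samples, the share was 4.38% in the CD8 T-like class and 4.70% in B-like cells, with sample medians of 4.79% and 4.49%. The CD8 T-like share is not read as expression. Pooled shares were also below that of B-like cells in cDC2-like (4.43%) and monocyte/macrophage-like cells (1.99%). The large CD8 T-like class still held 27.9% of Pdcd1lg2 UMIs. Lgals9 was broad: the class means ran from 20.6 CPM in mature DC-like to 140.5 CPM in monocyte/macrophage-like samples, and the ranges of neighbouring classes overlapped throughout the order. Thinned cells with an Lgals9 UMI were 26.5% of monocyte/macrophage-like cells and 3.28% of mature DC-like cells.

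Genotype differences were tested within each class with edgeR's quasi-likelihood test on summed UMIs, adjusted by the Benjamini-Hochberg method over all genes tested in that class, with calls at an adjusted p under 0.05. In CD8 T-like cells 2 of the 10 genes were called, both higher in iKO, where 5.44% of all 9351 genes tested were called in either direction. In monocyte/macrophage-like cells 1 of 9 tested was called against 9.09% of all genes, in cDC2-like cells 2 of 8 against 2.3%, and in neutrophil-like cells 1 of 7 against 1.38%. None was called in CD4 T-like cells (4 tested, 3.29% of all genes called), Treg-like cells (9 tested, 1.42%), B-like cells (2 tested, 2.85%) or mature DC-like cells (7 tested, 0.0416%). At an unadjusted p under 0.05 in edgeR's test these 4 classes gave 4 of 4, 4 of 9, 0 of 2 and 1 of 7 tested checkpoint genes, beside 13.8%, 14.5%, 13.2% and 12.2% of all genes. DESeq2 called Entpd1 in Treg-like and Ctla4 in mature DC-like cells and none of the tested genes in the other 2 classes. No tested checkpoint gene had groups without overlap in CD4 T-like or B-like cells, where 8.74% and 8.1% of all genes did. Over all kept cells 1 of 10 was called against 2.53% of all genes. The median log2 fold change of the tested checkpoint genes was 0.29 in CD8 T-like, 0.53 in Treg-like and 0.49 in monocyte/macrophage-like cells, beside -0.02, -0.02 and -0.01 for all genes tested there. NK-like, cDC1-like and pDC-like cells were not tested, since fewer than 3 samples of a genotype held 20 such cells. Genes left out of a class by the low-count filter, such as Tigit in every myeloid class, have only their levels here.

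**Figure D2:**
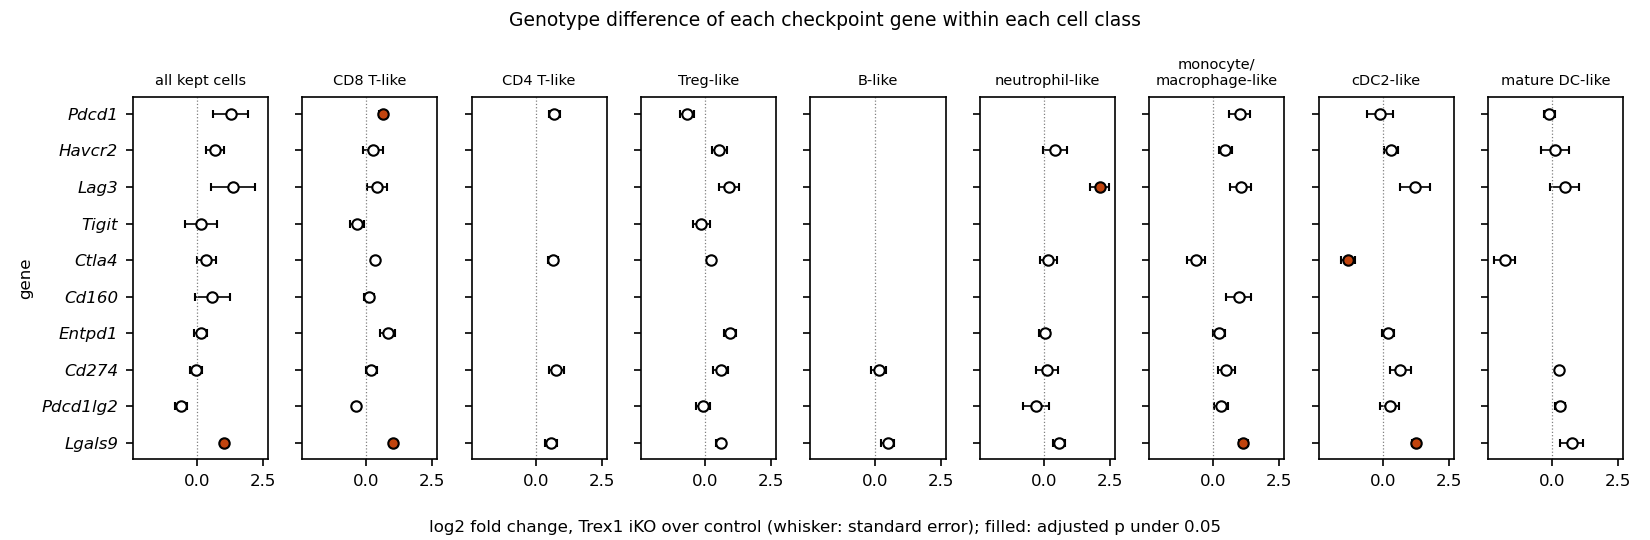
Log2 fold change of Trex1 iKO over control for each checkpoint gene (rows), with its standard error, in all kept cells and 8 cell classes (panels); filled points passed an adjusted p of 0.05. Filled points are Lgals9 in 4 panels, Pdcd1 in CD8 T-like, Ctla4 in cDC2-like and Lag3 in neutrophil-like cells.

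Lgals9, which encodes the TIM-3 ligand galectin-9, was the checkpoint gene with the most calls, and all of them were higher in iKO. Over all kept cells iKO samples 1 to 4 had 139, 132.7, 116.9 and 127.1 CPM and control samples 62.4, 62.2, 63.3 and 62.2 CPM. The groups did not overlap, as for 13.8% of all genes in this profile, and the controls lay within about 1 CPM of each other. The log2 fold change was 1.04 ± 0.083 (SE, n = 4 per group, edgeR adjusted p = 0.000841). This profile mixes the level per cell with the class shares given above. From it alone, more cells of a type and more Lgals9 RNA per cell cannot be told apart.

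Within monocyte/macrophage-like cells Lgals9 was 226.8, 233.1, 148.9 and 167 CPM in iKO samples 1 to 4 and 93.9, 87.2, 95.7 and 71.1 CPM in control samples. All iKO values lay above all control values, with iKO 1 and 2 the highest, and the groups failed to overlap in 19.1% of all genes tested in this class. The log2 fold change was 1.14 ± 0.18 (edgeR adjusted p = 0.0114). In cDC2-like cells the iKO samples had 115.6, 114.5, 87.4 and 88.4 CPM and the controls 40.7, 48.7, 47.6 and 33.4 CPM. This was the largest Lgals9 difference among the classes tested, a log2 fold change of 1.27 ± 0.15 (edgeR adjusted p = 0.00587), and 10.3% of genes there had groups that did not overlap. In the same profiles the summed cDC2 markers were 361.9 to 1331 CPM in iKO and 1333 to 1736 CPM in control samples (0 of 6 higher in iKO), and macrophage markers 2859 to 3587 and 2283 to 3067 CPM (7 of 11 higher), with none at 0. Their part in the difference was not tested. In CD8 T-like cells it was 64.8, 69.1, 74.4 and 64 CPM in iKO against 32.4, 31.3, 40.4 and 37.9 CPM in control (log2 fold change 0.99 ± 0.11, edgeR adjusted p = 0.000837). There the groups were also apart, as they were for 13.6% of all genes. Summed macrophage markers in the CD8 T-like profiles were 1222 to 1442 CPM in iKO and 576.8 to 1020 CPM in control samples, with 6 of the 11 markers higher in iKO and none at 0. Their part in the Lgals9 difference of CD8 T-like cells was not tested. Among cells passing the stricter CD8 T cell gate, with no UMI of Lyz2 and 4 other lineage genes, the log2 fold change was 0.49 (edgeR adjusted p = 0.453, 953 cells). Without the Lyz2 condition (4893 cells) the call was kept.

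The Lgals9 difference was not called in the other classes, where its log2 fold change was 0.59 ± 0.16 in Treg-like, 0.58 ± 0.23 in CD4 T-like, 0.56 ± 0.23 in neutrophil-like, 0.49 ± 0.25 in B-like and 0.74 ± 0.44 in mature DC-like cells (edgeR adjusted p from 0.102 to 0.535). The Treg-like iKO samples had 57.1 to 86.1 CPM and the controls 45.7 to 53.1 CPM, without overlap, as for 8.08% of all genes there. The difference between classes was itself not called. It was 0.08 ± 0.20 on the log2 scale for monocyte/macrophage-like minus CD8 T-like, 0.53 ± 0.29 for monocyte/macrophage-like minus neutrophil-like and 0.37 ± 0.19 for CD8 T-like minus Treg-like cells (edgeR adjusted p = 0.908, 0.805 and 0.928). No gene of the 10 was called in these interaction fits, in which 0.124%, 0.00951% and 0.0% of all genes were.

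The monocyte/macrophage-like class held different clusters in the genotypes. Clusters 3, 16, 22 and 11 held 16.8%, 12.5%, 9.5% and 13.2% of its iKO cells and 1.4%, 1.3%, 1.1% and 2.9% of its control cells, and cluster 0 held 8.1% and 25.2%. Lgals9 was therefore also read within clusters that both genotypes filled. In cluster 10, led by Vcan and Chil3, 4 iKO samples had 157.4 to 266.4 CPM and 4 control samples 54.8 to 88.0 CPM. In cluster 7 (Ly6i, Ocstamp) the ranges were 130.5 to 199.9 and 58.2 to 83.6 CPM, and in cluster 19 (Ccl8, Vcam1) 156.7 to 227.8 and 92.5 to 135.5 CPM. The ranges were also apart in clusters 11, 14, 17 and 29, which fewer samples filled, and in the unnamed cluster 23 (Pdpn, Thbs1), at 117.7 to 182.8 and 46.2 to 89.4 CPM. They overlapped in cluster 0 (Pmp22, Mmp12), at 62.5 to 138.4 and 66.3 to 110.3 CPM. The highest sample value, 384.3 CPM, came from cluster 16, led by the interferon-induced genes Cxcl10 and Ifit2, in which no control sample reached 20 cells.

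**Figure D3:**
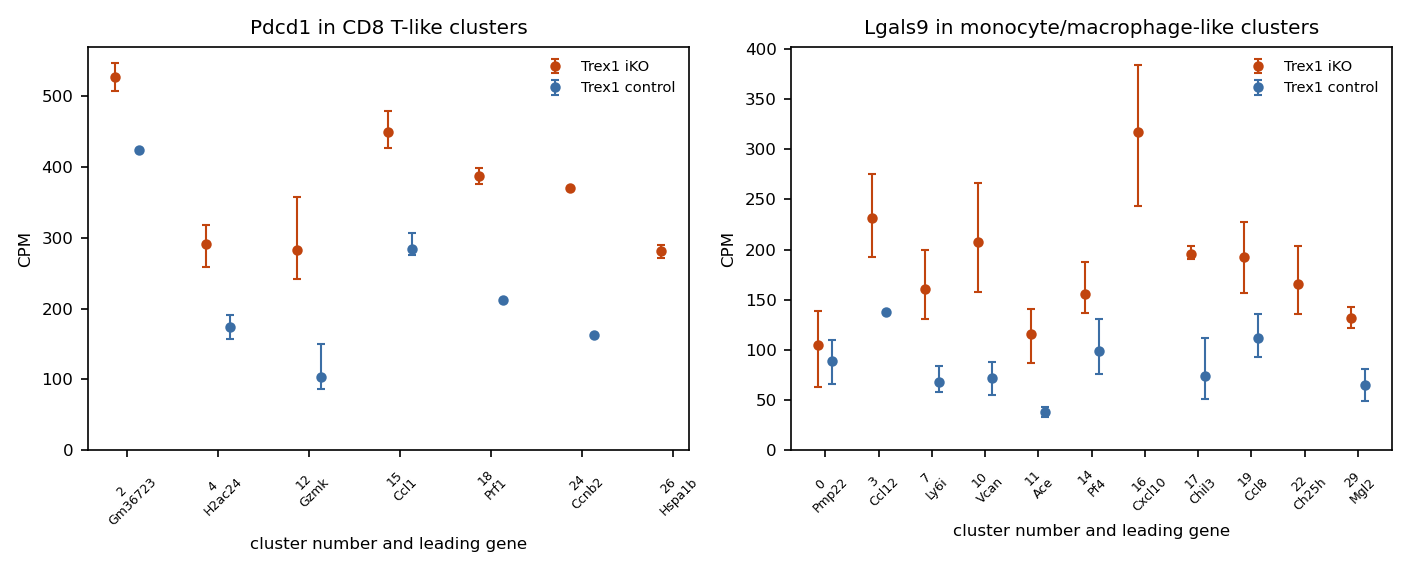
CPM of Pdcd1 in the CD8 T-like clusters (left) and of Lgals9 in the monocyte/macrophage-like clusters (right), as the mean over hashtagged samples with at least 20 cells in the cluster; whiskers span the lowest to the highest sample. In clusters 12 and 15 the Pdcd1 ranges of the genotypes are apart, and cluster 0 is the one at right where the Lgals9 ranges overlap among clusters with at least 2 samples of each genotype.

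The window from 250 bases before to 50 after the annotated start of each gene was read from RefSeq (build GRCm38.p6) for 9 of the 10 genes, as 11 windows. It is shown for the 2 genes called higher in CD8 T-like cells and for Cd274, the ligand best known for interferon control. Lower case is the window 5′ to 3′ on the gene's strand, and capitals mark letters like the interferon-stimulated response element (GAAA, any 2 bases, GAAA) on either strand. Lgals9 is at chr11:78984875-78985174 (minus strand), Pdcd1 at chr1:94052504-94052803 (minus strand) and Cd274 at chr19:29367188-29367487 (plus strand).
Lgals9: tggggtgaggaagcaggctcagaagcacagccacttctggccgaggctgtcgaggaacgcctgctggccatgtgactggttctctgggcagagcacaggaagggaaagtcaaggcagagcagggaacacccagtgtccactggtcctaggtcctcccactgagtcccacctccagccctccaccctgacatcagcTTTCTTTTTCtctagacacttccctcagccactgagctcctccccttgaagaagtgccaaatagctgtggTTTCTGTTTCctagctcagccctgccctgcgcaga
Pdcd1: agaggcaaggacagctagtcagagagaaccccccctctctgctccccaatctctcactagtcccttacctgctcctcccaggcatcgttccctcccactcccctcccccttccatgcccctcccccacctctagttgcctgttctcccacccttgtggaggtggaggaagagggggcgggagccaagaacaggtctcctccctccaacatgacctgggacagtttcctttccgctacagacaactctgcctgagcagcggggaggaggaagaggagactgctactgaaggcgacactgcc
Cd274: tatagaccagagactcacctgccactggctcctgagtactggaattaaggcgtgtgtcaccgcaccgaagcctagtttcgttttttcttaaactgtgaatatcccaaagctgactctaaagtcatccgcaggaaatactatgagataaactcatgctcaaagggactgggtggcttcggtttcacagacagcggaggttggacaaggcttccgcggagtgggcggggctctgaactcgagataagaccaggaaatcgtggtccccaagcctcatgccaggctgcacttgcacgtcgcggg
The Lgals9 window held these letters at 2 places, both on the opposite strand, beginning at -55 and +15 from the start (counted as 0). The other windows of the 10 genes held none. Over 32851 RefSeq windows of the same length, 1131 (3.44%) held at least 1 match. The letters TTCNNNGAA, also searched on both strands, occurred once, in 1 of the 2 Cd160 windows, and in 8.30% of all windows. No match of one motif overlapped a match of the other in these windows. A match is a description of the letters, not a measured binding site.

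Cd274 and Pdcd1lg2 were not called in any class with all samples and the low-count filter. Cd274 in CD4 T-like cells had a log2 fold change of 0.78 (edgeR adjusted p = 0.193). It passed edgeR's test without that filter (0.78, adjusted p = 0.0264) and without iKO 4 (1.03, 0.0328). Over all fits with 1 sample left out it ran from 0.32 to 1.03, with an edgeR adjusted p up to 0.695. Sample iKO 2 had 142.6 CPM, and the next highest, iKO 1, had 73.2 CPM. In monocyte/macrophage-like cells Cd274 was 208.1, 188.4, 88.4 and 85.5 CPM in iKO samples 1 to 4 and 97, 128.1, 78 and 98.6 CPM in control samples. Samples iKO 1 and 2 were the highest and iKO 3 and 4 lay inside the control range. The log2 fold change was 0.49 ± 0.33 (edgeR adjusted p = 0.362). In mature DC-like cells iKO samples had 403.2, 406.7, 305.9 and 314.7 CPM and controls 368.9, 293.4, 272.6 and 286.7 CPM, a log2 fold change of 0.27 ± 0.13 (edgeR adjusted p = 0.418). In neutrophil-like cells both groups spread widely, from 101.6 to 582 CPM in iKO and from 184 to 574.6 CPM in control. Pdcd1lg2 over all kept cells was 24.3, 25.2, 16.9 and 17.4 CPM in iKO and 26, 47.6, 27.7 and 27.2 CPM in control samples. The groups did not overlap, as for 13.8% of all genes in that profile, and the difference was not called (log2 fold change -0.61 ± 0.23, edgeR adjusted p = 0.177). The neutrophil-like class, the highest in Pdcd1lg2, was the smaller share of iKO cells. Within it, Pdcd1lg2 had a log2 fold change of -0.30 ± 0.49 (edgeR adjusted p = 0.881).

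The PD-1 ligands were detected in the same cells more in some classes than others. In neutrophil-like cells thinned to 2000 UMIs, a median of 36.6% of Cd274-positive cells also had Pdcd1lg2, against 9.3% of Cd274-negative cells, and the positive cells were higher in 7 of 7 samples. In monocyte/macrophage-like cells the medians were 3.7% and 1.4%, higher in 7 of 8 samples. Mature DC-like cells gave 15.5% and 17.5%, higher in 2 of 6. The cells of a sample share their library, so these values are a description. Cells with both ligands were 1.12%, 1.19%, 0.948% and 0.630% of monocyte/macrophage-like cells in iKO and 0.580%, 0%, 0.344% and 0.502% in control samples. The groups did not overlap, and the difference had p = 0.0286 in a two-sided exact permutation test, the smallest 4 against 4 can give, and 0.114 after adjustment over 4 classes. With cells thinned to 1000 UMIs the difference changed sign, to -0.0438 percentage points, and without thinning the mean shares were 8.01% and 5.36%. In neutrophil-like cells the shares were 1.54% to 18.0% in iKO and 5.83% to 21.5% in control samples.

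Pdcd1, the gene of PD-1, was called higher in iKO CD8 T-like cells. The iKO samples 1 to 4 had 381.3, 375.4, 310.2 and 273.4 CPM and the control samples 210.9, 227, 220.7 and 250.5 CPM. Every iKO sample lay above every control sample, and the groups were apart for 13.6% of all genes tested there. The log2 fold change was 0.61 ± 0.13 (edgeR adjusted p = 0.0194). The summed markers of the class itself were 5898 to 5997 CPM in iKO and 4072 to 5233 CPM in control samples, with 6 of 6 higher in iKO, and neutrophil markers 76.8 to 111.3 and 275.9 to 451.4 CPM. Their part in the Pdcd1 difference was not tested. The edgeR call was lost without iKO 2 (log2 fold change 0.54, adjusted p = 0.0661), control 2 (0.60, 0.0647) or control 3 (0.59, 0.0557). Among gated CD8 T cells the log2 fold change was 0.79 (edgeR adjusted p = 0.333) and, without the Lyz2 condition, 0.77 (adjusted p = 0.163).

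The CD8 T-like class was also made of different clusters. Clusters 2, led by Gm36723 and Cxcr6, and 18, led by Prf1 and Ifng, held 24.5% and 17.3% of its iKO cells and 5.7% and 6.1% of its control cells. Clusters 12 (Gzmk, Ccl5) and 15 (Ccl1, Gzmf) held 12.5% and 11.9% of iKO and 32.3% and 33.4% of control cells. In cluster 12 Pdcd1 was 241.6 to 357.1 CPM in 4 iKO samples and 86.0 to 150.5 CPM in 4 control samples. In cluster 15 it was 427.6 to 479.6 CPM in 3 iKO and 276.1 to 307.2 CPM in 4 control samples. In cluster 4, led by replication-dependent histone genes such as H2ac24, 3 iKO samples had 259.4 to 317.6 CPM and 2 control samples 156.6 and 190.5 CPM. The genotypes were apart in all 3 of these clusters, where the values have no test. The share of thinned CD8 T-like cells with a Pdcd1 UMI was 50.8%, 50.8%, 44.4% and 31.1% in iKO and 30.4%, 31.7%, 27.9% and 32.0% in control samples. Sample iKO 4 lay inside the control range, and the difference of 13.8 percentage points had an exact permutation p of 0.0857 (adjusted over 41 share tests 0.439). Without thinning the mean shares were 80.3% and 64.4%.

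**Figure D4:**
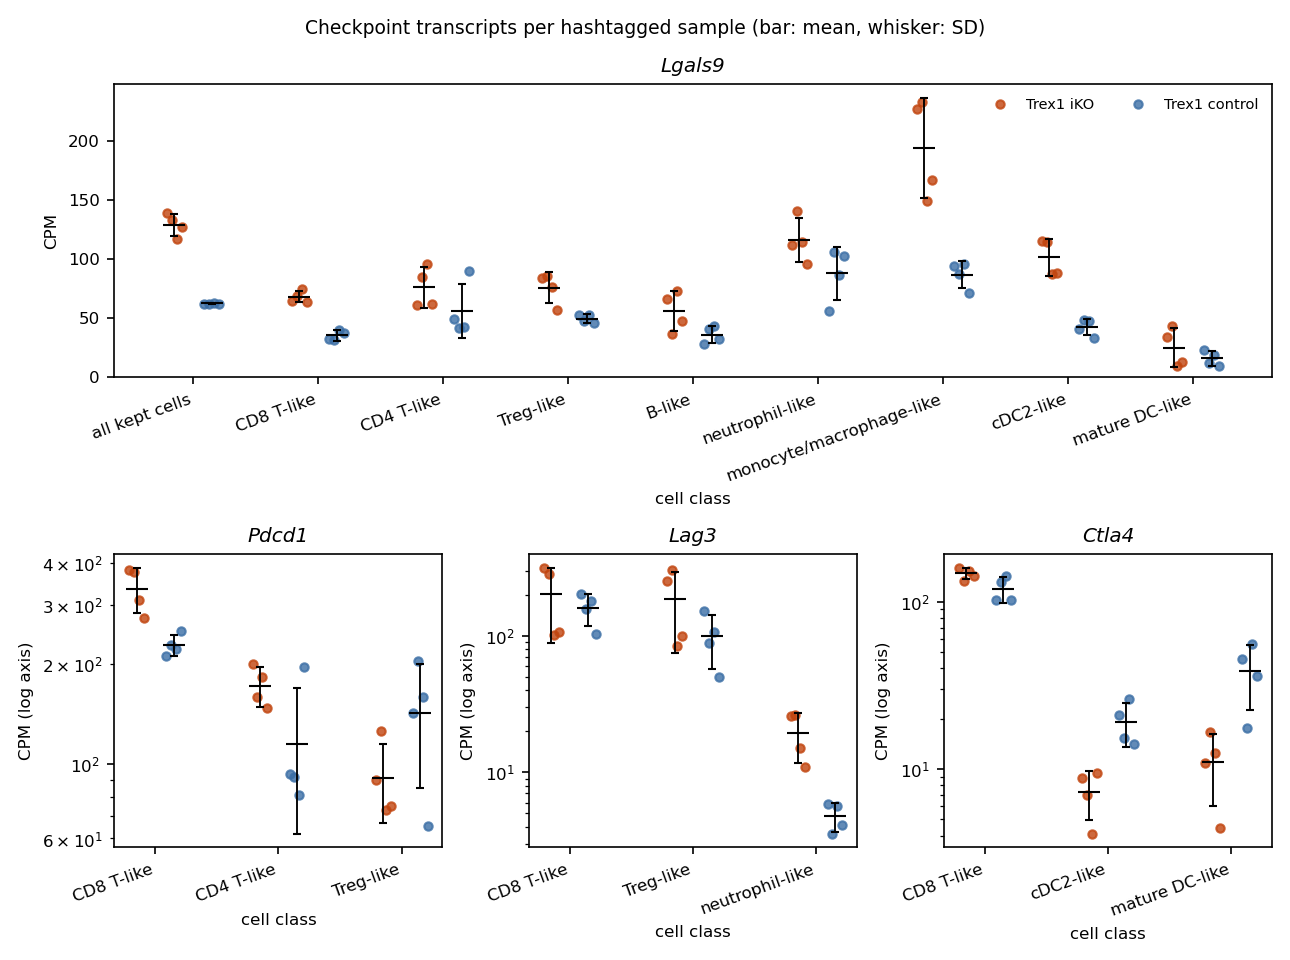
CPM per hashtagged sample (points) of Lgals9 in all tested profiles (top, linear axis) and of Pdcd1, Lag3 and Ctla4 in 3 classes each (bottom, log axes), with mean and SD. In the bottom panels the genotypes are apart for Pdcd1 in CD8 T-like, Lag3 in neutrophil-like and Ctla4 in cDC2-like and mature DC-like cells.

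Havcr2 and Lag3 spread widely between samples of the same genotype in CD8 T-like cells. Lag3 was 318.9, 285.8, 101.7 and 108.3 CPM in iKO samples 1 to 4 and 202.9, 157.9, 182 and 104.4 CPM in control samples. Havcr2 was 221.4, 202.1, 79.5 and 78.2 CPM in iKO and 182.6, 144.2, 108.9 and 76.7 CPM in control samples. For both genes iKO 1 and 2 were the highest of all samples, and iKO 3 and 4 lay near the lowest control. The log2 fold changes were 0.40 ± 0.36 for Lag3 and 0.24 ± 0.36 for Havcr2 (edgeR adjusted p = 0.599 and 0.774).

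Entpd1, the ectoenzyme CD39, was 91.9, 86.3, 57.8 and 53.7 CPM in iKO and 62.9, 46.3, 35.1 and 20.3 CPM in control CD8 T-like samples. The ranges overlapped through control 1, and the difference was not called (log2 fold change 0.81 ± 0.28, edgeR adjusted p = 0.124). It passed edgeR's test with the hashtag number as a replicate block (0.85, adjusted p = 0.00403) and without control 1 (1.13, adjusted p = 0.0438). Over all fits with 1 sample left out it ran from 0.65 to 1.13, with an edgeR adjusted p up to 0.292. Thinned CD8 T-like cells with an Entpd1 UMI were 15.1% ± 3.02 in iKO and 6.45% ± 2.86 in control samples (SD, n = 4 per group, exact permutation p = 0.0286, adjusted 0.293), and unthinned 51.7% and 31.1%. Ctla4 had 147.2 ± 11.3 CPM in iKO and 119.4 ± 20.7 CPM in control CD8 T-like samples (SD, n = 4 per group), a log2 fold change of 0.34 ± 0.12 (edgeR adjusted p = 0.142). Cd160 was 75.8 to 100.6 CPM in iKO and 57.5 to 111 CPM in control samples, and Tigit 5.7 to 9.9 and 4.62 to 16.3 CPM. Their log2 fold changes, 0.11 ± 0.18 and -0.36 ± 0.25, were not called (edgeR adjusted p = 0.813 and 0.476).

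Some receptor genes were detected more often in CD8 T-like cells positive for another, and others about as often in positive and negative cells. Among thinned cells a median of 44.2% of Lag3-positive cells had Pdcd1 against 29.4% of Lag3-negative cells, and 31.9% against 16.7% had Havcr2. Both were higher in 7 of 7 samples. Pdcd1-positive cells had Entpd1 in 11.7% and Pdcd1-negative cells in 10.9%, higher in 5 of 8 samples. Ctla4-positive cells had Pdcd1 in 38.6% and Ctla4-negative cells in 30.5%, higher in 6 of 7 samples. For Havcr2 these values were 18.8% and 20.4%, higher in 3 of 7, and for Cd160 12.3% and 13.4%, higher in 2 of 7. Cells with 3 or more of the 7 receptor genes were 32.1%, 26.2%, 10.5% and 12.2% of CD8 T-like cells in iKO samples 1 to 4. In controls 1 to 4 they were 15.2%, 10.4%, 11.2% and 1.33%. Samples iKO 1 and 2 stood above all others, and iKO 3 and 4 lay inside the control range. The two-sided exact permutation test gave p = 0.171 (adjusted 0.257 over 4 tests). The mean number of receptor genes per thinned CD8 T-like cell was 1.54 ± 0.37 in iKO and 1.09 ± 0.13 in control samples (SD, n = 4 per group, exact permutation p = 0.0857, adjusted 0.257). Without thinning the means were 3.8 and 3.02, at unequal depths, and the shares with 3 or more were 73.4% and 57.2%.

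**Figure D5:**
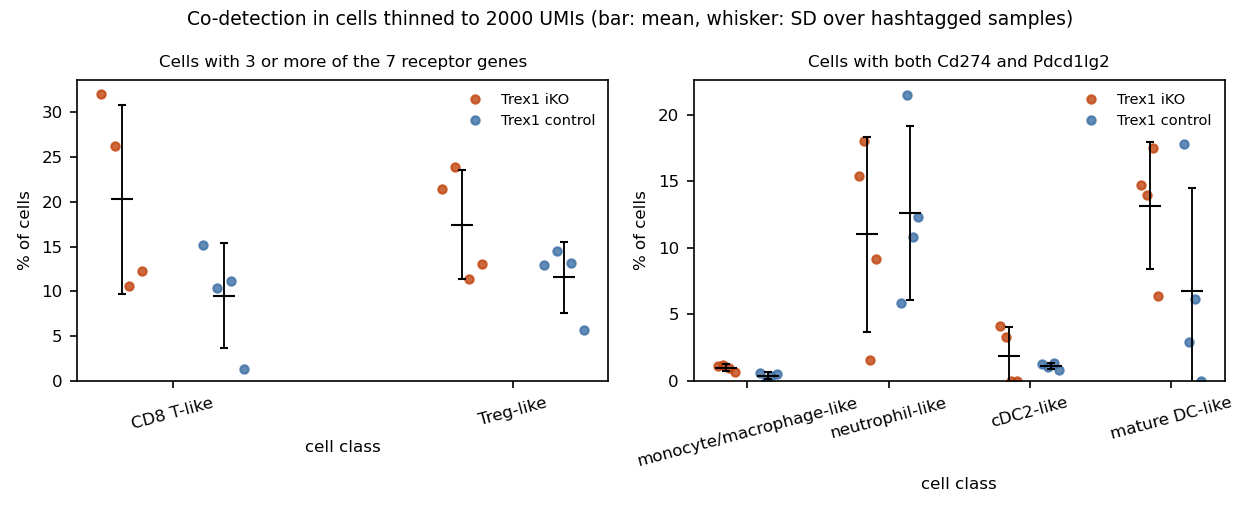
Percent of cells, per hashtagged sample (points, with mean and SD), with 3 or more of the 7 receptor genes in CD8 T-like and Treg-like cells (left) and with both Cd274 and Pdcd1lg2 in 4 myeloid classes (right), after thinning each cell to 2000 UMIs. At left iKO 1 and 2 reach 21.4% to 32.1% and the other iKO samples overlap the controls; at right only the monocyte/macrophage-like groups are apart.

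No checkpoint gene was called in Treg-like cells, though 2 genes had groups that did not overlap, as 8.08% of all genes did. Entpd1 was 107.2, 125.4, 73.1 and 63.4 CPM in iKO and 61.7, 47.3, 40.4 and 45.7 CPM in control Treg-like samples. The lowest iKO sample was just above the highest control. The log2 fold change was 0.95 ± 0.23 (edgeR adjusted p = 0.06), and it passed with DESeq2 (0.94, adjusted p = 0.0214) and with the replicate block (0.88, adjusted p = 0.0189). The second gene was Lgals9, above. Without the low-count filter edgeR called 4 of these genes in Treg-like cells: Entpd1 (1.00, adjusted p = 0.000181), Lag3 (0.95, 0.00147), Lgals9 (0.64, 0.0393) and Pdcd1, which was lower (-0.63, 0.0396). That fit called 394 of all 16091 genes tested, against 112 of 7867 with the filter. With the filter, edgeR called Entpd1 without iKO 4 or control 1 (adjusted p = 0.0231 and 0.026), Lgals9 without iKO 4 (0.0429) and Havcr2 without control 1 (0.0497). In other fits with 1 sample left out the edgeR adjusted p reached 0.221 for Entpd1, 0.315 for Lgals9 and 0.72 for Havcr2. Pdcd1 had the opposite sign in Treg-like cells, with 89.5, 125.9, 73.1 and 75.2 CPM in iKO and 142.3, 203.4, 159 and 65.2 CPM in control samples. Control 4 was the lowest of all, so the groups overlapped (log2 fold change -0.67 ± 0.26, edgeR adjusted p = 0.252). The difference of the Pdcd1 fold changes, CD8 T-like minus Treg-like, was 1.23 ± 0.29 on the log2 scale, with an unadjusted p of 0.000873 and an edgeR adjusted p of 0.466. It passed edgeR's test without control 4 (1.53, adjusted p = 0.0451) and without the low-count filter (1.23, adjusted p = 8.99e-07). The unfiltered fit called 81 of 19377 genes, against 0 of 9503 with the filter. Over all fits with 1 sample left out the difference ran from 1.01 to 1.53, with an edgeR adjusted p up to 0.9999. Ctla4, the Treg effector receptor, was 1127 ± 135 CPM in iKO and 946.6 ± 231 CPM in control samples (SD, n = 4 per group, edgeR adjusted p = 0.526). In CD4 T-like cells, which do not include the Treg-like clusters, Ctla4 and Pdcd1 had log2 fold changes of 0.67 ± 0.19 and 0.71 ± 0.21 (edgeR adjusted p = 0.0550 and 0.0720). Control 4, with 194.9 CPM of Pdcd1 from 41 cells, was the high sample there, and without it Pdcd1 passed edgeR's test (0.92, adjusted p = 0.00246). Ctla4 also passed edgeR's test without control 4, iKO 1 or iKO 3 (0.74 to 0.77, adjusted p = 0.0369, 0.0447 and 0.0366). In other fits with 1 sample left out the edgeR adjusted p reached 0.2329 for Ctla4 and 0.2445 for Pdcd1. Without the low-count filter both passed edgeR's test (adjusted p = 0.003 for Ctla4 and 0.00479 for Pdcd1). The unfiltered fit called 251 of 14974 genes, against 184 of 5596 with the filter.

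Lag3 and Ctla4 transcripts were also counted at low levels in myeloid classes, and 2 of these differences were called. Lag3 in neutrophil-like cells was 25.9, 26.2, 15 and 10.9 CPM in iKO samples 1 to 4 and 5.8, 3.5, 5.7 and 4.1 CPM in control samples, from 61 and 32 UMIs in all. The groups did not overlap, as for 6.74% of all genes tested there, and the log2 fold change was 2.10 ± 0.35 (edgeR adjusted p = 0.00840). The edgeR call was lost without iKO 2 (1.89, adjusted p = 0.0596), without control 4 (2.02, 0.0501) and with doublets kept (2.46, 0.0569). Summed CD8 T cell markers in the same neutrophil-like profiles were 118.5 to 302.3 CPM in iKO and 111.2 to 158.8 CPM in control samples, 5 of 6 markers were higher in iKO, and none was at 0. NK markers were 20.7 to 110.5 CPM in iKO and 11 to 17.65 CPM in control samples, without overlap, with 5 of 6 higher in iKO and none at 0. The part of either list in the Lag3 difference was not tested. Thinned neutrophil-like cells with a Lag3 UMI were 1.64% of all, beside 0.896% of B-like cells.

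Ctla4 was called lower in iKO cDC2-like cells. The iKO samples had 8.8, 7, 4.1 and 9.4 CPM and the controls 21, 15.4, 26.4 and 14 CPM, from 83 and 180 UMIs. The groups were apart, as for 10.3% of all genes tested there, and the log2 fold change was -1.31 ± 0.27 (edgeR adjusted p = 0.0354). The edgeR adjusted p was 0.0512 with the replicate block, 0.0652 with coarser clustering and 0.0511 to 0.112 without iKO 1, iKO 2 or any of the 4 controls. Summed Treg markers in these profiles were 16.4 to 53.2 CPM in iKO and 31.3 to 94.7 CPM in control samples, 1 of 5 was higher in iKO, and none was at 0. Mature DC-like cells had 10.8, 16.7, 12.4 and 4.4 CPM of Ctla4 in iKO and 45.1, 17.7, 56.1 and 35.8 CPM in control samples. There too the groups were apart, as for 6.15% of all genes. The difference was not called by edgeR (log2 fold change -1.81 ± 0.40, adjusted p = 0.137) and was by DESeq2 (-1.79, adjusted p = 0.00561). It also passed edgeR's test without the low-count filter (-1.78, adjusted p = 0.00134). That fit called 167 of 15924 genes, against 3 of 7216 with the filter. Treg markers in the mature DC-like profiles were 164 to 200.3 CPM in iKO and 154 to 298.8 CPM in control samples. The part of these markers in either Ctla4 difference was not tested. In monocyte/macrophage-like cells Pdcd1 and Lag3 were at most 9.9 and 8.6 CPM in any sample, beside 69.1 to 167.8 CPM of summed CD8 T cell markers in iKO and 48.8 to 111.4 CPM in control samples, and neither was called (edgeR adjusted p = 0.136 and 0.135).

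The wider pathway was read from 3 lists. Of 28 partner receptors and ligands, 21 were tested in CD8 T-like cells: Cd48 rose and Cd200 fell, 2 of 21 where 5.44% of all genes were called, and the median log2 fold change was 0.25 beside -0.02 over all genes. Cd48, the ligand of CD244, was 336.8 ± 13.9 CPM in iKO and 232.7 ± 10.7 CPM in control CD8 T-like samples (SD, n = 4 per group, edgeR adjusted p = 0.00181). Cd200, whose product signals to the inhibitory CD200 receptor, was 11.6 to 14.0 CPM in iKO and 17.8 to 65.6 CPM in control samples (log2 fold change -1.75, edgeR adjusted p = 0.0140). Mature DC markers in these profiles were 14.9 to 29.2 CPM in iKO and 31 to 191.7 CPM in control samples (0 of 5 higher), and their part was not tested. Of 19 partners tested in Treg-like cells, where 1.42% of all genes were called, Icos rose and Sirpa, mainly a myeloid receptor, fell, beside macrophage marker sums of 756.2 to 1047 CPM in iKO and 513.2 to 1874 CPM in control samples. Icos, a CD28-family costimulator, was 626.4 ± 80.1 CPM in iKO and 365.2 ± 75.4 CPM in control Treg-like samples (SD, n = 4 per group, edgeR adjusted p = 0.0265). Of 16 tested in CD4 T-like cells, Icos, Cd48, Klrc1 and Cd86 rose and none fell, where 3.29% of all genes were called. Klrc1 is mainly an NK and CD8 T cell gene and Cd86 mainly a gene of antigen-presenting cells. Summed macrophage markers in the CD4 T-like profiles were 1047 to 1197 CPM in iKO and 885.5 to 948.2 CPM in control samples (5 of 11 higher), and NK markers 27.6 to 43.9 and 19.9 to 28.2 CPM (3 of 6 higher, with 1 marker at 0 in iKO). Their part was not tested. In CD4 T-like cells Icos was 611 ± 72.7 CPM against 423.1 ± 77.4 CPM (SD, n = 4 per group, edgeR adjusted p = 0.0465). Of 26 partners tested in monocyte/macrophage-like cells 3 rose and 1 fell, where 9.09% of all genes were called. Cd276, the gene of B7-H3, was 11.8 to 15.5 CPM in iKO and 5.23 to 8.37 CPM in control samples (log2 fold change 1.13, edgeR adjusted p = 0.00907). The others were Sirpa and its ligand Cd47, at 0.34 and 0.54, and Nt5e, the CD73 enzyme that acts after CD39, which fell by 1.43 on the log2 scale (edgeR adjusted p = 0.0303, 0.0489 and 0.00598). No partner was called in B-like, cDC2-like, mature DC-like or neutrophil-like cells, where 7, 20, 18 and 17 were tested. Of all genes, 2.85%, 2.3%, 0.0416% and 1.38% were called there.

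Of 16 T cell programme regulators, 15 were tested in CD8 T-like cells and 1 was called, near the 5.44% of all genes: Ptpn11, the gene of the PD-1-bound phosphatase SHP-2, at 49.9 ± 9.68 CPM in iKO and 77.6 ± 8.25 CPM in control samples (SD, n = 4 per group, log2 fold change -0.63, edgeR adjusted p = 0.0221). Ptpn6, which encodes the related SHP-1, rose in monocyte/macrophage-like and cDC2-like cells by 0.78 and 0.73 (log2 fold change, edgeR adjusted p = 0.0285 and 0.0404). Cd38 fell in the former and Prdm1 in the latter. Of 15 and 13 regulators tested there, 1 rose and 1 fell in each class, where 9.09% and 2.3% of all genes were called. Batf rose in CD4 T-like cells, 1 of 13 tested where 3.29% of all genes were called. Among 14 interferon gamma and PD-L1 regulators, Irf1, an interferon-induced transcription factor, was 96.4 ± 10.1 CPM in iKO and 56.7 ± 6.01 CPM in control CD8 T-like samples (SD, n = 4 per group, log2 fold change 0.82, edgeR adjusted p = 0.00271). Ifng, made mainly by T and NK cells, rose in neutrophil-like cells (log2 fold change 1.57, edgeR adjusted p = 0.0438), where 1.38% of all genes were called. These are the profiles whose NK and CD8 T cell marker sums are given above. The part of those markers was not tested. In monocyte/macrophage-like cells the 14 listed genes had a median of 0.35 beside -0.01 over all genes. Ifng alone was called, 1 of 14 where 9.09% of all genes were called. It was 7.74 to 13.7 CPM in iKO and 1.75 to 5.74 CPM in control samples, in profiles with the CD8 T cell marker sums given above. NK markers there were 11.5 to 22.7 CPM in iKO and 4.19 to 8.25 CPM in control samples, and their part was not tested.

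Across 79 class-by-sample profiles, the genes whose log2(CPM + 1) ran most like each checkpoint gene were named, among 7867 genes, as a description in which profiles share libraries and classes. Pdcd1 was most like Cd3g (Pearson's r = 0.88) and Themis (0.87), Ctla4 most like Cd5 (0.92), Tigit most like Cd27 (0.86), Lag3 most like Cd8b1 (0.78) and Cd160 most like Klrc1 (0.85). Havcr2 was most like Agpat4 (0.76) and Entpd1 most like P4ha1 (0.81). Among the ligands, Cd274 was most like Zfand3 (0.85) and Il15 (0.83), Pdcd1lg2 most like Rasa2 (0.75) and Lgals9 most like Cd53 (0.81).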

How the data were processed

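The deposited values were raw UMI counts per gene and cell barcode in 8 matrices, made by the authors with Cell Ranger 7.1.0 on GRCm39, per the submitters' processing notes. Cells with at least 300 genes, at most 10% mitochondrial UMIs and a Scrublet doublet score of at most 0.25 were kept (438 removed by score). They were clustered without the 10 genes (scanpy 1.11.5, 2000 variable genes, 30 components, 20 neighbours, Leiden resolution 2) and named from marker lists. The naming thresholds (detection in 25% or 50% of cells, at least 3 markers) were set after seeing the data.

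UMIs were summed per class and hashtagged sample and tested with edgeR 4.0.16 (R 4.3.3) quasi-likelihood tests, TMM factors and the low-count filter, with Benjamini-Hochberg adjustment over all genes tested. Shares of cells used cells thinned to 2000 UMIs (246 iKO and 407 control cells left out) and two-sided exact permutation tests over samples (scipy 1.17.1). The edgeR script, tested on simulated data with 200 genes changed 4-fold, recovered 96.5% in the profile of all kept cells (13302 genes). False calls were from 2.01% of calls in mature DC-like to 6.635% in CD4 T-like cells. No smaller change was simulated, so the recovery of smaller differences is not known from it. Members and lists were chosen with earlier results of these data known. Named genes were the 10 members, the called genes of 3 fixed lists and the genes most alike in CPM. Results for 1 listed gene are not reported here.

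Hashtag numbers come from the matrices' names. Over all kept cells the deviations of same-numbered samples from their group means had correlations of 0.50, 0.24, 0.14 and 0.53. For numbers 2 and 3 a control with another number correlated more with the iKO sample. The replicate block there called 708 genes against 340 and changed no checkpoint gene's call. In no class did every number exceed 0.1. Within pools no barcodes were shared between samples, and 45 were shared between pools.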

Additional observations from a re-analysis of the deposited data

Results flagged for a closer look

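In 10 of 132 groups of 4 samples, 1 sample's CPM stood apart from the other 3 by more than Dixon's critical value of 0.829. By chance about 1 in 20 groups does so. The values are given without an explanation, and their part in the results was not tested.

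In CD4 T-like cells control 4, with 41 cells, had 194.9 CPM of Pdcd1 where the other controls had 80.8 to 93.4 CPM, and 89.96 CPM of Lgals9 where they had 41.4 to 49.6 CPM. In monocyte/macrophage-like cells iKO 2 had 9.896 CPM of Pdcd1 against 4.04 to 4.78 CPM in the other iKO samples, and 8.562 CPM of Lag3 against 3.26 to 3.88 CPM. The same sample had 22.26 CPM of Ctla4 in neutrophil-like cells, where the others had 9.89 to 11.5 CPM. Sample iKO 2 also held the most CD8 T-like cells, 2426. In Treg-like cells control 1 had 128.6 CPM of Havcr2 against 53 to 57.9 CPM in the other controls. Pdcd1lg2 stood apart in control 2 over all kept cells, at 47.63 CPM against 25.9 to 27.7 CPM, and in control 4 among cDC2-like cells, at 40.61 CPM against 21 to 22.1 CPM. Cd274 was 83.83 CPM in the B-like cells of control 1 and 32.7 to 39.1 CPM in the other controls. Lgals9 over all kept cells was 63.31 CPM in control 3 and 62.2 to 62.4 CPM in the other controls, a gap of about 1 CPM in a group of very small spread.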

How the results depend on the processing

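Lgals9 kept its direction and its call over all kept cells and in monocyte/macrophage-like and cDC2-like cells with DESeq2, RLE size factors, no low-count filter, the replicate block, no doublet removal, at least 1000 genes per cell and each sample left out, and in the 2 classes also at Leiden resolution 1. In CD8 T-like cells its call was lost in the planned gate, at a log2 fold change of 0.49 (edgeR adjusted p = 0.453), as was that of Pdcd1, at 0.79, and at 0.77 in the gate without the Lyz2 condition, which was chosen after seeing the data. With 1 sample left out Pdcd1 ran from 0.53 to 0.70. Ctla4 in cDC2-like cells was -1.27 with the replicate block, -1.15 at Leiden resolution 1 and -1.45 to -1.12 with 1 sample left out. Lag3 in neutrophil-like cells was 2.46 with doublets kept and 1.89 to 2.34 with 1 sample left out. The share with Cd274 and Pdcd1lg2, at 1000 UMIs, was -0.0438 percentage points in monocyte/macrophage-like and 0.632 in neutrophil-like cells, and -3.92 to 1.57 in the latter with 1 sample left out. The cause of these changes was not tested. The planned gate held 953 cells and the wider gate 4893, of which 4053 were in the CD8 T-like class, beside 4888 cells in that class.

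The replicate block was used although the labels do not say that equal numbers pair samples across the pools. It also let Entpd1 pass in CD8 T-like (0.85) and Treg-like cells (0.88) and Ctla4 in CD4 T-like cells (0.57).

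Other log2 fold changes that changed sign, none of them called, were small. They were Cd274 in B-like cells (-0.0025 with the block, -0.0097 with doublets kept), Cd160 and Pdcd1lg2 in gated CD8 T cells (-0.0089 and 0.041), Pdcd1 in mature DC-like cells (0.071 at resolution 1, 0.14 with doublets kept), Havcr2 there (-0.045 with the block) and Entpd1 in neutrophil-like cells (-0.052 without the filter, -0.11 with doublets kept). Shares changed sign at 1000 UMIs for Tigit in CD8 T-like (-0.177 percentage points), Entpd1 in cDC2-like (1.53) and Entpd1 in mature DC-like cells (0.905). At 4000 UMIs they did so for Tigit in CD8 T-like (-2.07), Cd160 and Entpd1 in CD4 T-like (0.417 and 0.566), Ctla4 and Cd160 in Treg-like (-1.68 and 0.145), Havcr2 and Entpd1 in neutrophil-like (1.35 and 2.75), Entpd1 in cDC2-like (1.44) and Lgals9 in mature DC-like cells (-0.913).

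With 1 sample left out, 32 values that were not called changed sign in at least 1 fit, some of them also named above. The first are log2 fold changes, from the lowest to the highest. In CD8 T-like cells they ran for Cd160 -0.0297 to 0.35 and Havcr2 -0.033 to 0.48. In all kept cells they ran for Cd274 -0.20 to 0.097 and Tigit -0.29 to 0.41. In neutrophil-like cells they ran for Cd274 -0.17 to 0.41, Ctla4 -0.21 to 0.33, Entpd1 -0.11 to 0.13 and Pdcd1lg2 -0.67 to 0.18. In mature DC-like cells they ran for Havcr2 -0.57 to 0.41 and Pdcd1 -0.28 to 0.055. In cDC2-like cells they ran for Pdcd1 -0.46 to 0.26 and Pdcd1lg2 -0.15 to 0.58. In Treg-like cells they ran for Pdcd1lg2 -0.43 to 0.076 and Tigit -0.32 to 0.052. The differences of log2 fold changes, CD8 T-like minus Treg-like, ran for Cd160 -2.50 to 0.20, Ctla4 -0.12 to 0.20, Entpd1 -0.25 to 0.048, Pdcd1lg2 -0.53 to 0.047 and Tigit -0.52 to 0.041. The differences of log2 fold changes, monocyte/macrophage-like minus CD8 T-like, ran for Cd274 -0.082 to 0.58 and Lgals9 -0.029 to 0.28. The differences of log2 fold changes, monocyte/macrophage-like minus neutrophil-like, ran for Entpd1 -0.0022 to 0.37 and Havcr2 -0.18 to 0.49. Shares of CD4 T-like cells, in percentage points, ran for Cd160 -1.05 to 0.315 and Pdcd1 -0.534 to 6.21. Shares of Treg-like cells, in percentage points, ran for Cd160 -1.4 to 0.216. Shares of neutrophil-like cells, in percentage points, ran for Cd274 -0.595 to 10.6 and Pdcd1lg2 -5.01 to 3.71. Shares of monocyte/macrophage-like cells, in percentage points, ran for Entpd1 -0.0454 to 2.35. Shares of CD8 T-like cells, in percentage points, ran for Havcr2 -1.004 to 7.62. Shares of cDC2-like cells, in percentage points, ran for Havcr2 -1.1 to 2.59. Shares of mature DC-like cells, in percentage points, ran for Havcr2 -0.309 to 1.48.

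Counts of genes called moved by over 1.5 times as follows. Over all kept cells the 340 became 1381 with DESeq2 and 708 with the block. The 509 of CD8 T-like cells became 311 with doublets kept, 29 in the gate and 189 in the wider gate. The 1058 of monocyte/macrophage-like cells became 1888 with DESeq2. With DESeq2 and without the low-count filter, cDC2-like cells had 379 and 387 in place of 212, mature DC-like cells 79 and 167 in place of 3, neutrophil-like cells 153 and 329 in place of 93, and Treg-like cells 183 and 394 in place of 112. The block gave 29 in mature DC-like and 196 in Treg-like cells. Without the filter B-like cells had 176 in place of 100, and the interaction fits 81, 93 and 185 in place of 0 (CD8 T minus Treg), 1 (monocyte/macrophage minus neutrophil) and 15 (monocyte/macrophage minus CD8 T). With 1 sample left out the count ran from 225 to 553 in CD8 T-like, 216 to 1551 in monocyte/macrophage-like, 21 to 355 in cDC2-like, 14 to 343 in Treg-like and 0 to 41 in mature DC-like cells, and from 108 to 488 over all kept cells. The 184 of CD4 T-like cells ran from 112 to 202, the 93 of neutrophil-like cells from 47 to 100 and the 100 of B-like cells from 69 to 114. In the interaction fits it ran from 0 to 5, 1 to 9 and 3 to 64, in the order above. Tigit rested on few UMIs, as did Pdcd1, Lag3, Ctla4 and Cd160 in neutrophil-like cells (72, 93, 144 and 14). Havcr2 and Entpd1 did not in monocyte/macrophage-like cells (11359 and 9588 UMIs).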
